A study of Homo sapiens with 4 samples.

Results

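The large subunit of the cytosolic ribosome, 60S, is built from ribosomal RNA and a set of proteins that carry the prefix RPL. The genes described here are 48 protein-coding genes that encode these proteins, the P stalk and a few close paralogues, picked by symbol from the 58037 rows of a gene table. All 48 were in the table with an adjusted p, among 14231 genes that had one. They lie on 19 chromosomes, with 7 on chromosome 3 and 6 on chromosome 17. In the DROSHA knockdown cells 0 of the 48 were called higher or lower at an adjusted p under 0.05 in the authors' deposited table, where 0.351% of all tested genes were called, 0.330% higher and 0.0211% lower. The log2 fold change of knockdown over control was below 0 for 39 of the 48 and above 0 for 9, against 54.9% of all tested genes and 58.2% of the protein-coding ones below 0. The median over the 48 was -0.17, and the median over all tested genes was -0.03. Abundant genes leaned the same way: the 613 tested genes with a mean of at least 10000 normalised reads had a median of -0.10. The 41 of the 48 in that range had -0.17. In bulk RNA, fewer cells that express a gene and less of its RNA per cell cannot be told apart.

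The cells were K562, a human erythroleukaemia line grown in suspension. The knockdown cells were infected with a CRISPR lentivirus against DROSHA and the control cells with a non-specific CRISPR lentivirus. Both were selected with puromycin at 2.5 ng/μl and used at passages 25 to 30. Total RNA from whole-cell lysate was made into TruSeq Stranded Total RNA libraries, 2 from knockdown and 2 from control cells. The labels do not say whether the 2 libraries of a group came from separate infections, clones or cultures, so p-values here reflect library-to-library spread, part of which may be technical. DROSHA is the nuclease that cuts microRNA hairpins out of primary transcripts, and the infected cells kept part of its mRNA.

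For each gene the authors' deposited table lists normalised reads averaged over all 4 libraries, the fold change on the log2 scale and its adjusted p, and nothing for a single library. Whole reads of each library were recovered from the digits of its means for 14164 of the 14231 tested genes. They were recovered for 47 of the 48 members, RPL11 being the exception. Combinations were searched only near the deposited fold change and within a limit on the spread between libraries. For 8 of the 47 only 1 combination of reads there gave the mean. For the other 39 several did, and 1 was picked by a closer match to the fold change and a further limit on the spread. Values per library of all 47 thus rest in part on that fold change. The libraries are called A and B within each group, the deeper one A, because they could not be tied to the labels' replicate numbers. Values per library are these reads divided by the library's size factor, in the order A, B. Reads on the resolved genes came to 33507319 and 26565831 in the knockdown libraries and to 40066227 and 30673226 in the control libraries. DROSHA itself had 2734 and 2770 normalised reads in the knockdown libraries, against 6107 and 6077 in the control libraries. The table does not state the direction of its fold change, and every direction here rests on DROSHA being the lower in the knockdown. The erythroid markers of K562, 9 in all, had means between 2492 and 156201 normalised reads, and 11 markers of lymphoid, fibroblast, epithelial and liver cells had a median of 5.27. EPCAM, an epithelial adhesion gene, had the highest mean of these at 2755. None of the 20 markers was called in the authors' deposited table, and of the 11 only COL1A2, AFP and EPCAM had an adjusted p.

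The 60S subunit holds the peptidyl transferase centre, where RNA joins amino acids, and the tunnel through which the new chain leaves. Its proteins bind the RNA, shape the tunnel, take part in handling of transfer RNA and, in the stalk, recruit the GTPases of translation. The subunit is assembled in the nucleolus and nucleus with the help of many factors and exported to the cytosol. Messenger RNAs of ribosomal proteins are among the most abundant in growing cells. In vertebrates most start with a cytosine followed by a run of pyrimidines, the terminal oligopyrimidine (TOP) motif, through which the TOR pathway and the RNA-binding protein LARP1 control their translation and stability. Loss of 1 copy of any of several of these genes causes Diamond-Blackfan anaemia, a failure of red cell production.

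Start-site sequences from RefSeq (GRCh38.p14) were at hand for 41 of the 48 genes. They are shown because the start is the feature that most of these genes share outside their coding sequence. Each line below spans 30 bases, 12 before the annotated start base and 18 from it, 5′ to 3′ on the gene's strand. Where a gene had several annotated starts, the one with the longest run is shown. Capitals mark a run of C and T that begins with a C at the start base and has at least 4 more pyrimidines. The run of RPL39 is 19 bases long and goes past the end of its line. The genes chosen are the stalk proteins, both genes of 2 paralogue pairs, RPL35A, RPL39 and RPL3.
RPLP0, chr12:120201094-120201123, minus strand: cgggcgcgaggcCCTTCTCTCgccaggcgt
RPLP1, chr15:69452806-69452835, plus strand: taggcgcgagagCCCCTTTCCTCagctgcc
RPLP2, chr11:809955-809984, plus strand: cgtcggcgccttCCTTTTCCTCCCTgtcgc
RPL26, chr17:8383176-8383205, minus strand: cagcgtgtagttCTCTTCCCTTTTgcggcc
RPL26L1, chr5:172958717-172958746, plus strand: cttccaggggtcggcgaacgaaacgcggag
RPL22, chr1:6199578-6199607, minus strand: ttcgctcacctcCCTTTCTaactccgctgc
RPL22L1, chr3:170870178-170870207, minus strand: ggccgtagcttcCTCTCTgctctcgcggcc
RPL35A, chr3:197950178-197950207, plus strand: cggggcctcgtcCTTCTCTTaccgccatct
RPL39, chrX:119791613-119791642, minus strand: ttccgccagcttCCCTCCTCTTCCTTTCTC
RPL3, chr22:39319606-39319635, minus strand: aggccgaccggcctctaccggcgggatttg
A run of this kind stood at an annotated start of 29 of the 41 genes, 70.7%. A gene counted if any of its annotated starts had one. The share, by the same rule, was 91.7% of 12 other translation genes with messages known as TOP mRNAs and 74.1% of 27 small-subunit genes. It was 8.89% of 45 factors of 60S assembly and 7.72% of 8869 tested protein-coding genes. Of all 35116 start-site entries, counted singly and not by gene, 4.07% had a run. Runs were sought on 1 strand and at the start base alone. RPL3 has a C at the start base but fewer pyrimidines after it than the rule asks, and RPL26L1 has no such run there, which says only that the annotated base lacks a run of that length. The 29 genes with a run had a median log2 fold change of -0.17, and the 12 with another start had -0.21. Of the 29, 23 were below 0, and of the 12, 11.

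**Figure D1:**
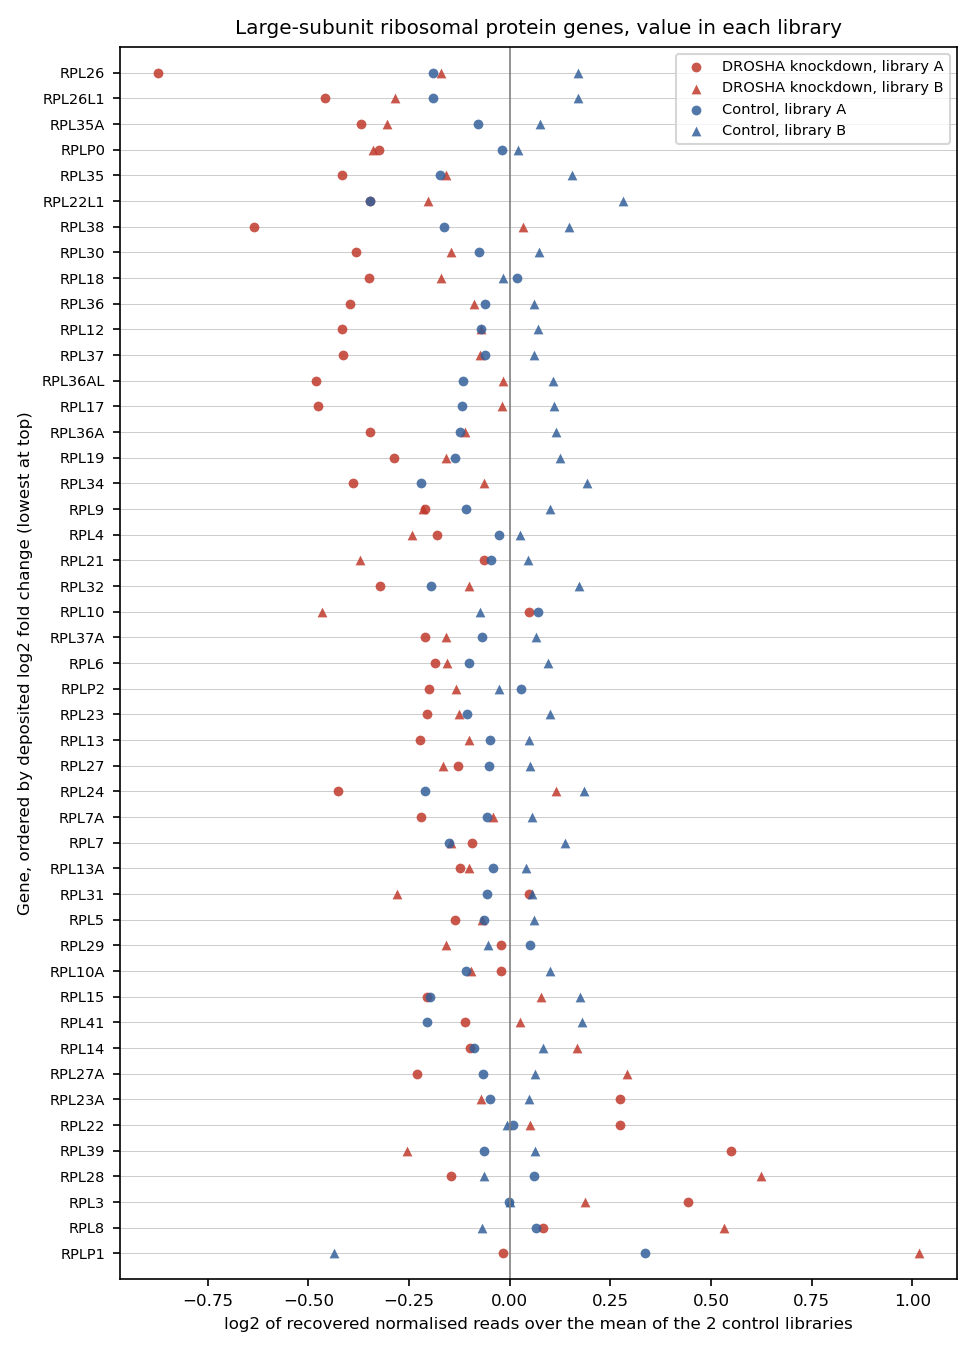
Recovered normalised reads of 47 genes in each of the 4 libraries, as the log2 of the value over the mean of the 2 control libraries. Red marks are knockdown libraries, blue marks control libraries, circles library A and triangles library B, and genes run from the lowest deposited fold change at the top to the highest at the bottom. Both red marks lie left of both blue marks in 20 genes and right of both in 3.

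Across the 47 genes with reads per library, both knockdown libraries lay below both control libraries in 20, and above both in 3. Among all resolved genes those orders occurred in 23.1% and 18.5%. Genes of like abundance were nearer to these genes: of the resolved genes with a mean of at least 10000 normalised reads, 38.0% had both knockdown libraries below both control libraries, and of all 613 tested genes of that abundance 72.9% had a log2 fold change below 0. Of the 41 RPL genes in that range, 34 were below 0, and 18 of the 40 resolved had both knockdown libraries lower. The lower order included near ties. RPL12, which sits at the base of the stalk, had 33632 and 42685 normalised reads in the knockdown libraries, against 42697 and 47083 in the control libraries. The larger of the 2 within-group gaps had a median of 0.31 on the log2 scale, and it exceeded the gap between the group means in 34 of the 47 genes. The larger of 2 gaps between single libraries exceeds a gap between means in most genes even where groups do not differ. The same count over all resolved genes was not made, so the 34 are a description only. Control library B was above control library A in 39 of the 47, against 50.0% of all resolved genes, and knockdown library B above knockdown library A in 33, against 53.1%. An exact permutation of 2 libraries against 2 cannot give a 2-sided p below 0.333, so no single gene was tested that way. Undoing the Benjamini-Hochberg adjustment of the authors' deposited table gave 6 members with an unadjusted p under 0.05, 4 of them lower and 2 higher. Among all tested genes 6.80% had one, 3.20% lower and 3.60% higher. Of the 613 tested genes with a mean of at least 10000, 85 had one, 68 of them lower. Of the 41 RPL genes in that range, 5 had one, 3 of them lower.

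RPLP0, the scaffold of the P stalk, had 59748 and 59159 normalised reads in the knockdown libraries, against 73823 and 75833 in the control libraries. The libraries of each group were close to each other, and the groups did not overlap. The gene spans chr12:120196686-120201235 on the minus strand (hg38, GENCODE release 29). The authors' deposited table gave it a log2 fold change of -0.33, with a standard error of at most 0.13 and an adjusted p of 0.428, the smallest among the 48. RPLP2, an acidic stalk protein that pairs with RPLP1, had 20142 and 21091 normalised reads in the knockdown libraries, against 23573 and 22690 in the control libraries. Its groups did not overlap either, and its log2 fold change was -0.17, at an adjusted p of 0.880 by the authors' deposited table. RPLP1, the partner, had 12755 and 26102 normalised reads in the knockdown libraries, against 16282 and 9531 in the control libraries. These groups overlapped, since knockdown library A lay between the 2 control libraries and knockdown library B above both. Its log2 fold change of 0.59 was the highest of the 48 in the authors' deposited table, with a standard error of at most 0.65 and an adjusted p of 0.929. Without knockdown library B the log2 ratio of RPLP1 was -0.02, and without knockdown library A it was 1.02.

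RPL5 and RPL11 enter the subunit together with 5S ribosomal RNA, and as a free particle they bind and inhibit MDM2, the ligase that degrades p53. RPL5 had 38734 and 40612 normalised reads in the knockdown libraries, against 40754 and 44401 in the control libraries. Knockdown library B lay just under control library A, so the groups were apart by a narrow margin. Its log2 fold change was -0.10, at an adjusted p of 0.948 by the authors' deposited table. RPL11 had the highest mean of the 48 at 77310 normalised reads in the authors' deposited table, a log2 fold change of -0.08 and an adjusted p of 0.975, and its reads per library were not resolved.

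Genes near the peptidyl transferase centre and the transfer RNA sites did not share a direction. RPL3, which reaches toward the peptidyl transferase centre, had 44756 and 37514 normalised reads in the knockdown libraries, against 32934 and 32979 in the control libraries. Both knockdown libraries were higher, the control libraries were almost equal, and the authors' deposited table gave a log2 fold change of 0.32, with a standard error of at most 0.14 and an adjusted p of 0.574. RPL8, whose protein lies close to the same centre, had 35801 and 48838 normalised reads in the knockdown libraries, against 35368 and 32208 in the control libraries. Knockdown library A was just above control library A, and the log2 fold change was 0.32 (standard error at most 0.16) at an adjusted p of 0.696 by the authors' deposited table. Without knockdown library B the log2 ratio of RPL8 was 0.08, and without knockdown library A it was 0.53. RPL10, which is placed late in assembly and reaches into the transfer RNA binding sites, had 20659 and 14468 normalised reads in the knockdown libraries, against 20994 and 18973 in the control libraries. One knockdown library lay among the control values and the other below them, and the log2 fold change was -0.19, at an adjusted p of 0.916 by the authors' deposited table. Leaving out knockdown library B turned the log2 ratio of RPL10 to 0.05, and leaving out knockdown library A took it to -0.47. RPL10A, part of the L1 stalk that guides transfer RNA out, had 21936 and 20831 normalised reads in the knockdown libraries, against 20649 and 23857 in the control libraries. Both knockdown values lay between the control values, with a log2 fold change of -0.06 and an adjusted p of 0.977 by the authors' deposited table.

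The exit tunnel is lined in part by loops of RPL4 and RPL17, and RPL39 sits near its end. RPL4 had 67634 and 64755 normalised reads in the knockdown libraries, against 75252 and 78043 in the control libraries. The groups were apart by more than the gap within either, with a log2 fold change of -0.21 (standard error at most 0.13) and an adjusted p of 0.788 by the authors' deposited table. RPL17 had 16576 and 22747 normalised reads in the knockdown libraries, against 21238 and 24868 in the control libraries. Knockdown library B lay between the control libraries, and the log2 fold change was -0.23, at an adjusted p of 0.862 by the authors' deposited table. The log2 ratio of RPL17 was -0.02 without knockdown library A and -0.48 without knockdown library B. The readthrough gene RPL17-C18orf32, which shares its exons, had a mean of 21367 normalised reads and a log2 fold change of -0.24 there, so reads of the pair cannot be told apart. RPL39, a very small ribosomal protein of 51 residues, had 2973 and 1700 normalised reads in the knockdown libraries, against 1941 and 2120 in the control libraries. The knockdown values lay on both sides of the control values, and the log2 fold change was 0.20, at an adjusted p of 0.929 by the authors' deposited table. Its log2 ratio was -0.26 without knockdown library A and 0.55 without knockdown library B.

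At the surface around the tunnel exit, RPL23A, RPL35, RPL26, RPL19 and RPL31 form the landing place for chaperones, the signal recognition particle and other factors that meet the new chain. RPL26 had the lowest log2 fold change of all 48, -0.48 (standard error at most 0.20) at an adjusted p of 0.549 by the authors' deposited table. The gene spans chr17:8377516-8383250 on the minus strand (hg38). It had 20664 and 33667 normalised reads in the knockdown libraries, against 33195 and 42569 in the control libraries. Knockdown library A was far below the rest, and knockdown library B lay between the control libraries. Its log2 ratio was -0.87 without knockdown library B and -0.17 without knockdown library A. AC135178.2, a gene that overlaps RPL26 on the same strand, had a mean of 4506 normalised reads and a log2 fold change of -0.19 by the authors' deposited table. RPL35 had 23176 and 27729 normalised reads in the knockdown libraries, against 27421 and 34444 in the control libraries. The groups overlapped by a narrow margin, with a log2 fold change of -0.28 and an adjusted p of 0.757 by the authors' deposited table. RPL19 had 61386 and 67228 normalised reads in the knockdown libraries, against 68265 and 81691 in the control libraries. Knockdown library B stayed just below control library A, and the log2 fold change was -0.22, at an adjusted p of 0.823 by the authors' deposited table. RPL31 had 16569 and 13192 normalised reads in the knockdown libraries, against 15411 and 16646 in the control libraries. RPL23A had 13378 and 10540 in the knockdown libraries, against 10707 and 11439 in the control libraries. In both genes knockdown library A was the higher of its group and the groups overlapped, with log2 fold changes of -0.11 for RPL31 and 0.11 for RPL23A by the authors' deposited table.

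Human cells hold paralogues of a few of these proteins. RPL26 and RPL26L1 share 84.1% of 435 aligned coding bases, RPL36A and RPL36AL 89.9% of 318, and RPL22 and RPL22L1 68.6% of 366. Whether reads were shared within a pair was not tested. RPL26L1, which had the lowest mean of the 48 at 975 normalised reads in the authors' deposited table, had 800 and 901 in the knockdown libraries, against 962 and 1235 in the control libraries. The groups did not overlap, and both genes of the pair were below 0, RPL26L1 with a log2 fold change of -0.37 (standard error at most 0.18) and an adjusted p of 0.687 by the authors' deposited table. RPL22, a protein that is dispensable for the ribosome in mice and binds messenger RNA as well, had 4563 and 3908 normalised reads in the knockdown libraries, against 3798 and 3757 in the control libraries. RPL22L1, the paralogue whose RNA RPL22 restrains in mice, had 1915 and 2117 normalised reads in the knockdown libraries, against 1914 and 2960 in the control libraries. Both knockdown libraries were above both control libraries for RPL22, library B by a narrow margin, while for RPL22L1 control library B stood above the other 3. Their log2 fold changes were 0.17 (adjusted p = 0.907) and -0.27, at an adjusted p of 0.855 by the authors' deposited table, and the difference between them was not tested. RPL22L1 had a log2 ratio of 0.07 without control library B, the same sign as RPL22, and -0.55 without control library A. RPL36A had 9933 and 11692 normalised reads in the knockdown libraries, against 11593 and 13684 in the control libraries, and RPL36AL had 4045 and 5587, against 5213 and 6083. Knockdown library B lay between the control libraries in both genes. RPL36A and RPL36AL both stood at a log2 fold change of -0.23, and the authors' deposited table gives adjusted p-values of 0.833 and 0.872 for them. The readthrough gene RPL36A-HNRNPH2 overlaps RPL36A, at a mean of 11649 normalised reads and a log2 fold change of -0.25 there.

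Of the large-subunit genes mutated in Diamond-Blackfan anaemia, 10 were listed (RPL5, RPL11, RPL35A, RPL15, RPL26, RPL27, RPL31, RPL35, RPL18 and RPL17), and all 10 had a log2 fold change below 0 in the authors' deposited table, between -0.48 and -0.06, with 0 called. Below 0 were also 39 of all 48 genes, 72.9% of tested genes with a mean of at least 10000 normalised reads and 54.9% of all tested genes. RPL15 and RPL31 changed sign when 1 library was left out. RPL35A had 19969 and 20879 normalised reads in the knockdown libraries, against 24418 and 27207 in the control libraries. The groups stood apart, with a log2 fold change of -0.34 (standard error at most 0.13) and an adjusted p of 0.474 by the authors' deposited table. RPL18 had 23269 and 26326 normalised reads in the knockdown libraries, against 30019 and 29277 in the control libraries. Both knockdown libraries were lower, with a log2 fold change of -0.26 and an adjusted p of 0.704 by the authors' deposited table. RPL27 had 20678 and 20144 normalised reads in the knockdown libraries, against 21813 and 23373 in the control libraries, again without overlap, and a log2 fold change of -0.15, at an adjusted p of 0.908 by the authors' deposited table. RPL15, which had 21532 and 26241 normalised reads in the knockdown libraries and 21669 and 28034 in the control libraries, showed nearly the same 2 values in both groups. Its log2 fold change was -0.06, with an adjusted p of 0.983 by the authors' deposited table.

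RPL28, a protein that budding yeast lacks, had 11647 and 19868 normalised reads in the knockdown libraries, against 13448 and 12345 in the control libraries. Knockdown library B stood above the other 3 libraries, and knockdown library A was the lowest of all 4. The log2 fold change was 0.29 (standard error at most 0.20) at an adjusted p of 0.850 by the authors' deposited table, and the log2 ratio was -0.15 without knockdown library B. RPL41, the shortest protein of the set at 25 residues, had 2875 and 3160 normalised reads in the knockdown libraries, against 2693 and 3517 in the control libraries, with both knockdown values inside the control range. Its log2 fold change was -0.04, with an adjusted p of 0.988 by the authors' deposited table. Of the 22 genes outside these role groups, RPL28, RPL41 and RPL12 among them, 19 were below 0, with a median of -0.17. Both knockdown libraries lay below both control libraries in 11 of them (RPL6, RPL9, RPL12, RPL13, RPL13A, RPL21, RPL23, RPL30, RPL36, RPL37 and RPL37A), with log2 fold changes from -0.26 for RPL30 to -0.11 for RPL13A. That order occurred in 23.1% of all resolved genes and in 38.0% of those with a mean of at least 10000 normalised reads. RPL30 had 23776 and 27989 normalised reads in the knockdown libraries, against 29362 and 32581 in the control libraries. RPL37A had 21542 and 22301 in the knockdown libraries, against 23751 and 26071 in the control libraries. Both genes had the groups apart, RPL30 with an adjusted p of 0.752 and RPL37A with 0.855 by the authors' deposited table. The remaining 11 overlapped. Among these, RPL38, whose loss in mice disturbs translation of Hox messages, had 16864 and 26789 normalised reads in the knockdown libraries, against 23411 and 28984 in the control libraries. Knockdown library A was low and knockdown library B lay inside the control range, and without knockdown library A the log2 ratio of RPL38 was 0.03, against -0.26 as deposited. RPL14 and RPL27A, at 0.04 and 0.05 by the authors' deposited table, had control values enclosed by the knockdown values.

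**Figure D2:**
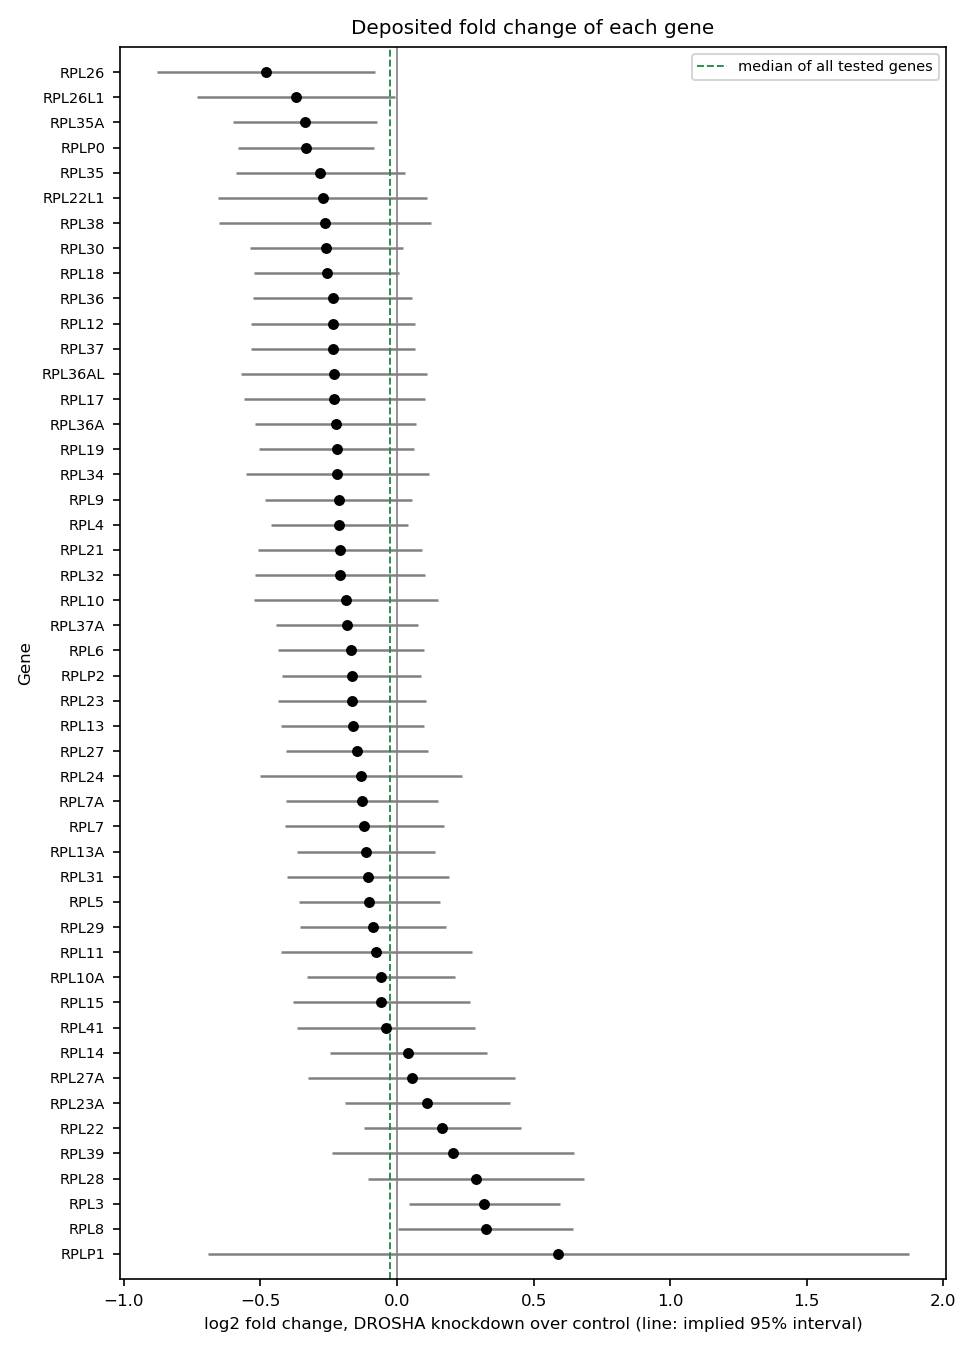
Deposited log2 fold change of each of the 48 genes, knockdown over control, with the 95% interval implied by the authors' adjusted p (widest limits where adjusted values are shared). The interval covers 0 in 42 genes; RPL26, RPL26L1, RPL35A and RPLP0 lie wholly below 0, and RPL3 and RPL8 wholly above, before any adjustment over genes.

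The implied standard errors of the 48 were at most 0.13 to 0.65, with a median of 0.15, the widest being that of RPLP1. Across the 48 genes the log2 fold change had a Spearman rho of -0.09 with the mean and 0.22 with the coding length, given as descriptions over genes that share the same 4 libraries. Over the 41 with a start sequence, rho with the length of the longest pyrimidine run at an annotated start was 0.04.

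**Figure D3:**
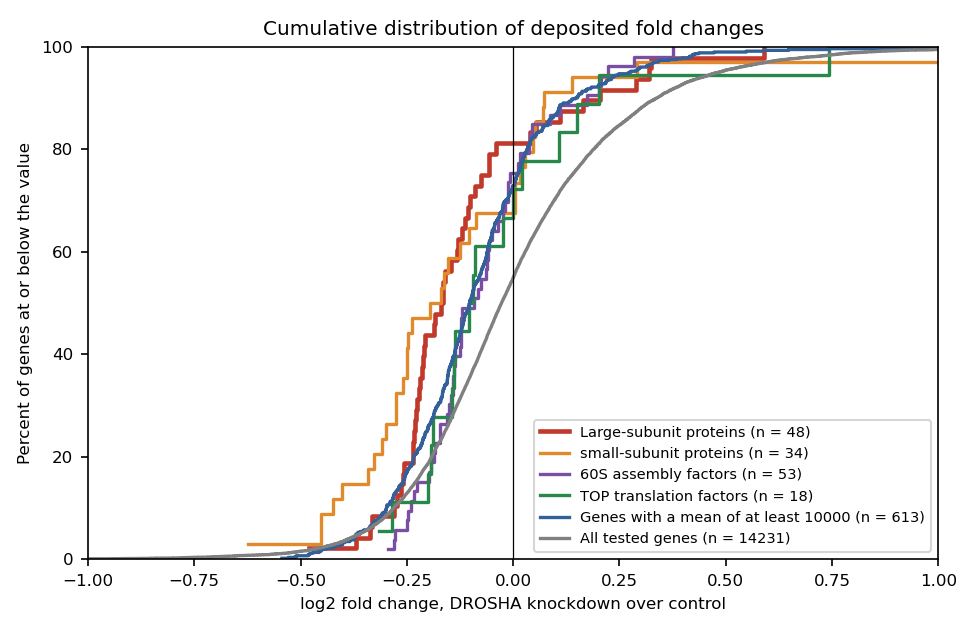
Percent of genes at or below each deposited log2 fold change, for the large-subunit genes, 3 related lists, genes with a mean of at least 10000 normalised reads and all tested genes. The curve of the large-subunit genes crosses 0 at 81.3% and that of all tested genes at 54.9%; RPS16, at 1.42, lies beyond the right edge.

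Of 4 related lists of genes, 3 also had most members below 0 in the authors' deposited table, in the same comparison over the same libraries. Of 34 small-subunit proteins, which form the 40S partner of these proteins, 23 were below 0, the median was -0.18, and 14 of the 32 resolved had both knockdown libraries lower. The share with both lower was 23.1% of all resolved genes and 38.0% of those with a mean of at least 10000 normalised reads. RPS26, a 40S protein near the messenger RNA exit, was the only gene of the 5 lists that was called, with 3904 and 4469 normalised reads in the knockdown libraries, against 6751 and 6151 in the control libraries. Its log2 fold change was -0.62, at an adjusted p of 0.0069 by the authors' deposited table. Among 53 factors that assemble 60S, 40 were below 0 with a median of -0.09 and 0 were called. The example with the smallest adjusted p was DDX51, a helicase of assembly, at 0.38 (adjusted p = 0.669), followed by RRP1 at -0.28, at an adjusted p of 0.705 by the authors' deposited table. Of 18 other translation genes whose messages are known as TOP mRNAs, 13 were below 0 with a median of -0.10, and 0 were called. EIF3F, a subunit of the initiation factor eIF3, had the smallest adjusted p there, 0.616, with a log2 fold change of -0.32, followed by EIF4B at -0.28, at an adjusted p of 0.736 by the authors' deposited table. Of 17 genes of TOR signalling and LARP1, 16 were tested, 7 were below 0 with a median of 0.03, and 0 were called. EIF4EBP1, the translation repressor that TOR switches off, was at a log2 fold change of -0.31 with an adjusted p of 0.619, and LARP1 at 0.16, at an adjusted p of 0.904 by the authors' deposited table. Differences between these lists were not tested.

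**Figure D4:**
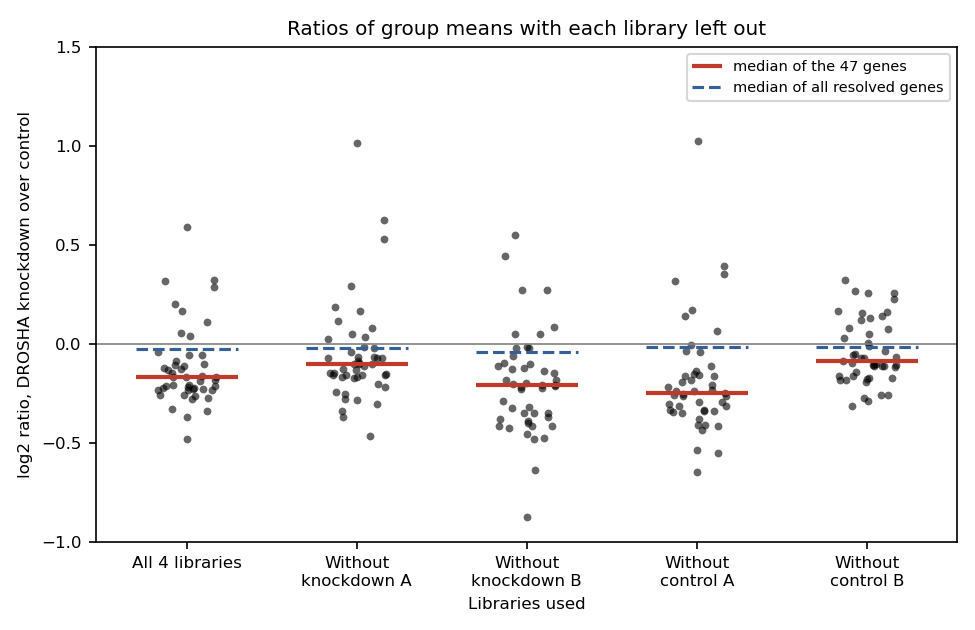
log2 ratio of the group means of recovered normalised reads, knockdown over control, for 47 genes (points) with all 4 libraries and with each left out, beside the median of these genes (red line) and of all resolved genes (dashed blue line). The red line lies between -0.25 and -0.09 in the 5 columns, below the blue line in each.

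With 1 library left out at a time, the median stayed below 0 while its size changed. Each such ratio shares 3 of the 4 libraries with the deposited value, so it gives no separate support for the direction. The median log2 ratio of the 47 was -0.10 without knockdown library A, -0.21 without knockdown library B, -0.25 without control library A and -0.09 without control library B, and the genes below 0 numbered 36, 40, 40 and 31. Over all resolved genes the share below 0 in the same order was 54.2%, 56.3%, 52.6% and 52.7%. Genes of like abundance were not counted in these fits. With all 4 libraries, where the ratios follow the deposited fold changes by construction, it was 55.0%, and 38 of the 47 genes were below 0. In 28 of the 47 all 4 ratios were below 0, against 31.0% of all resolved genes, and in 3 (RPL3, RPL8 and RPL22) all 4 were above 0. A gene with both knockdown libraries below both control libraries must have all 4 below 0, so these counts repeat that order in part. In the remaining 16 the sign changed when 1 library was left out, and these were RPL7, RPL10, RPL10A, RPL14, RPL15, RPL22L1, RPL23A, RPL24, RPL27A, RPL28, RPL31, RPL34, RPL38, RPL39, RPL41 and RPLP1. The members took 3.64% and 3.84% of the resolved reads of the knockdown libraries, and 3.81% and 4.09% of those of the control libraries, so these shares overlapped between the groups. With limma on the recovered reads, 0 of the 47 passed an adjusted p of 0.05 over all 4 libraries, where 0.184% of all resolved genes passed. With TMM scaling in place of the size factors 0 of the 47 passed as well, against 0.198% of all resolved genes. An unadjusted p under 0.05 was found for 4 of the 47 and for 9.59% of all resolved genes. Without control library A or control library B, 0 of the 47 passed, against 0.0706% and 0.0565% of all resolved genes. Without knockdown library A, limma called RPLP1 and RPL28 higher (1.07% of all genes called), and without knockdown library B it called RPL26 and RPL38 lower (1.78% called). Each of these fits assumes that the library left alone in its group varies as the other group's libraries do.

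Introns of these genes also hold small nucleolar RNAs (snoRNAs), which guide the modification of ribosomal RNA and are released when the host intron is processed. GENCODE places 39 snoRNA genes inside 18 of the 48 on the same strand. Of the 38 with reads, 36 had a log2 fold change above 0 in the authors' deposited table, where 72.8% of all 378 snoRNA and Cajal body RNA rows with reads were above 0. The medians were 0.58 and 0.46. Read numbers were small, with a median mean of 11.1 normalised reads, only 8 of the 38 had an adjusted p, and 0 were called. SNORD32A, inside RPL13A, had 96.1 and 91.0 normalised reads in the knockdown libraries, against 68.3 and 52.3 in the control libraries, and SNORD58B, inside RPL17, had 271 and 209, against 240 and 195. The first pair of groups did not overlap and the second did, and the adjusted p-values were 0.807 and 0.969 in the authors' deposited table. RPL13A itself had 49780 and 50553 normalised reads in the knockdown libraries, against 52727 and 55800 in the control libraries, a log2 fold change of -0.11, at an adjusted p of 0.931 by the authors' deposited table. The 18 hosts had a median log2 fold change of -0.17 and the other 30 genes -0.18. Fragments of unspliced host RNA and of the snoRNA cannot be told apart in these rows. MicroRNA hairpins are annotated inside RPL8, RPL28 and RPL10A. The one with a value, MIR7111 in RPL10A, had a mean of 47.2 normalised reads and a log2 fold change of 0.81, at an adjusted p of 0.786 by the authors' deposited table.

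Processed pseudogenes are copies of these messages that can draw reads from them. The table lists 641 pseudogenes named for the 48 genes, 328 of them with reads, and their means sum to 0.731% of those of the genes. The share was 8.31% for RPL23A, 5.00% for RPL9 and 3.21% for RPL3, and 13 of the 48 were above 1%. How the aligner placed reads that fit both a gene and its copies is not given in the sources used here.

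**Figure D5:**
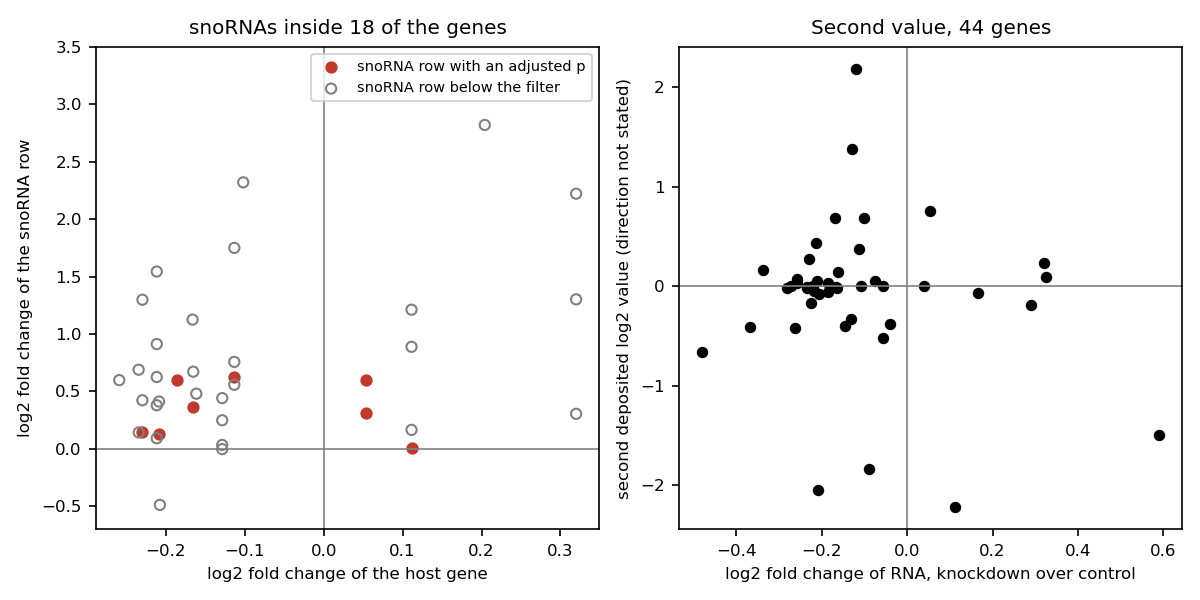
Left, log2 fold change of each snoRNA row with reads against that of its host gene, filled where the row had an adjusted p. Right, the second deposited log2 value against the log2 fold change of RNA for 44 genes; on the left 36 of 38 points lie above 0, and on the right the points scatter over all 4 quadrants.

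The authors' deposited table holds a second log2 value with a header that names the 5′ UTR and coding sequence, given for 44 of the 48 genes. Neither its assay nor its direction is stated, so no direction is read from it. The median was 0.00 over the 44 and 0.11 over all tested genes with a value. Of the 44, 22 were below 0, 20 above and 2 (RPL22L1 and RPL10A) exactly 0. The values far from 0 were those of RPL23A at -2.22, RPL21 at -2.05, RPL29 at -1.83, RPLP1 at -1.50, RPL7A at 1.37 and RPL7 at 2.18 in the authors' deposited table. For 33 of the 44 the value was the log2 of a ratio of whole numbers with a denominator up to 100000, within a relative tolerance of 1e-13. In lowest terms these ratios were 3 to 14 for RPL23A, 20 to 83 for RPL21, 37 to 132 for RPL29, 70 to 27 for RPL7A and 168 to 37 for RPL7, and 54053 to 53940 for RPL19, whose value is 0.00. What the whole numbers count is not stated. Spearman's rho with the log2 fold change was 0.02 over the 44 and 0.05 over 8604 tested genes, as a description across genes of 1 experiment. The sign was the same in 22 of the 44.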

How the data were processed

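Total RNA was sequenced from 2 DROSHA knockdown and 2 control libraries, grouped by the labels. The authors deposited 1 table with normalised reads averaged over the 4 libraries (a signal), a log2 fold change, an adjusted p-value and a second log2 value. The build was hg38 and the tools named are DESeq2 1.24.0, STAR 2.6.0a and Bowtie2 2.3.4.1, per the submitters' processing notes. What counted the reads, with which strand setting and annotation, is not given in the sources used here. The planned edgeR test was not run, because the table offers 0 columns for single libraries. Calls are the authors', at a threshold of 0.05.

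The adjustment was undone over 14231 genes. Read as 2-sided Wald p-values, the recovered values gave standard errors, which are upper limits where adjusted values are shared. Each mean is a sum of whole reads divided by size factors. The values of 1 read gave size factors of 1.09 and 0.813 for the knockdown libraries and 1.23 and 0.918 for the control libraries. Whole-read combinations that gave the mean were searched in a window around the deposited fold change. The 13631 genes with 1 such combination were accepted without a further check. Where there were several, a gene was kept if only 1 matched the fold change (tolerance 1e-06 on the log2 scale) with a spread ratio under 6. Of the 47 members resolved, 8 had 1 combination and 39 were settled by the fold change and spread. Both steps were tested on simulated data. Reads simulated at the means of the members came back right in 468 of 480 cases, with 12 unresolved and 0 wrong. The simulated spread between libraries was narrow, so it does not cover a gene as variable as RPLP1. The simulated p was also held to a narrow range. Tied adjusted values left some members a wider one, such as a Wald p of 0.339 to 0.367 for RPLP1. Means above 100000 were not tried.

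limma 3.58.1 (R 4.3.3, trend, pseudocount 1) was added after seeing the data. TMM factors, computed from the recovered reads, were an alternative scaling. Ratios of group means used a pseudocount of 0.5. Positions and snoRNAs came from GENCODE release 29 (48 of 48 members matched), start sites from RefSeq. Means are not corrected for length. Values were printed for members of fixed roles and for those at the ends of the fold changes, adjusted p-values and means. EIF4B, RRP1, RPL12, RPL13A, RPL14, RPL27A, RPL30, RPL37A, RPL38, the outlying second values and the snoRNAs named were chosen after their values were seen. The members, lists and roles were chosen with earlier results of these data known.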

Additional observations from a re-analysis of the deposited data

How the results depend on the processing

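The count of genes called was 0 at adjusted p thresholds of 0.1 and 0.01, with a Bonferroni adjustment, with protein-coding genes adjusted again and with limma on the recovered reads. With limma it lay between 0 and 2 when each library in turn was left out, and was 2 without either knockdown library. The count below 0 was 31 to 40 of 47 and the median log2 value -0.25 to -0.09 over the same 4 fits by ratios of means. With the second deposited log2 value in place of the fold change, 22 of 44 genes were below 0 and the median was -0.0046; it is another measurement of unstated direction. Centring on the median of all tested genes left 39 of 48 genes below 0, and a floor of 1000 normalised reads left 38 of 47. Leaving out RPL22L1, RPL26L1, RPL36A and RPL36AL, which were all below 0, left 35 of 44. With TMM scaling of the recovered reads 0 of 47 genes were called, 38 were below 0 and the median was -0.15, while the median of all resolved genes was -0.0062. For single genes, 144 of 188 leave-out values stayed within 1 standard error of the deposited fold change. The standard error is the upper limit for the gene itself, so a wide one hides large shifts. All 4 values of RPLP1 counted as within it, though they ran from -0.02 to 1.03. No paired analysis was possible because the recovered libraries could not be tied to replicate numbers. A fit without the authors' filter on low values was not run, since reads were recovered for tested genes only. With 2 libraries a group, the spread between libraries, not read depth, limits these values: the fewest reads of a resolved member in a library were 733.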
